A study of Mus musculus with 2 samples.

Results

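The nuclear subunits of the respiratory chain and ATP synthase were examined in CMP, the common myeloid progenitors of mouse bone marrow, whose descendants include granulocytes, monocytes, megakaryocytes and red cells. Members were all nuclear protein-coding genes whose symbols name a structural subunit: the Nduf genes with a letter a, b, c, s or v and a number, Sdha to Sdhd, the Uqcr genes and Cyc1, the Cox4 to Cox8 genes, and the Atp5 genes. This rule found 85 genes among 21461 nuclear protein-coding genes and 43346 mouse genes in the tables: 35 of complex I, 4 of complex II, 9 of complex III, 20 of complex IV and 17 of complex V (ATP synthase). Ndufa4 and its relative Ndufa4l2 were counted with complex IV, where the Ndufa4 protein resides. Assembly factors were not members, nor was Ndufab1, a complex I subunit gene whose symbol falls outside this rule.

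Complexes I to IV pass electrons from NADH and succinate through ubiquinone and cytochrome c to oxygen, and complexes I, III and IV pump protons across the inner mitochondrial membrane. ATP synthase uses the return of those protons to make ATP. All complexes except complex II also hold subunits encoded in the mitochondrial genome, so the nuclear genes described here supply only part of each, and several complex IV subunits exist as alternative forms made mainly in muscle, lung or testis.

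Total RNA was sequenced from 2 libraries, each made from a pool of 100 primary CMP. The mice were adult C57BL/6J males, 5 to 6 weeks of age, with no treatment or genotype change given in the labels. Both libraries carry the label of a biological replicate and the same donor identifier, so any p-value below measures only how these 2 libraries differ. Both belong to a single group, so levels are described without a test, and with 2 libraries the smallest p an exact sign-flip test can give is 0.5. Values are transcripts per 1000000 (TPM), which divide counts by transcript length, or expected counts, in which reads shared between genes were divided among them.

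The libraries summed to 28916263 (replicate 1) and 26426710 (replicate 2) expected counts, of which the members took 0.407% and 0.444%. Of the 6 genes for which CMP are gated, Kit stood at 98.1 and 92.95 TPM and Cd34 at 74.5 and 55.4. Both Fc gamma receptor genes were higher in replicate 2, Fcgr2b at 2.48 and 9.59 TPM and Fcgr3 at 0.64 and 4.27 TPM, while Ly6a and Il7r, which the CMP gate excludes, had 0 counts in both libraries. A single non-coding gene, Gm42418, took 38.1% and 33.0% of all counts, which lowers every TPM value without changing the ratios between members of 1 library. With 3 counts as the limit that a count of 0 allows, an unseen gene could stand at 0.104 and 0.114 counts per 1000000, which covers counting error only.

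Of the 85 members, 78 reached 1 TPM in both libraries, against 44.9% of all nuclear protein-coding genes, and the remaining 7 had 0 counts in both. The 7 silent genes were all alternative forms or relatives of complex IV subunits: Cox4i2, Cox6a2, Cox7a1, Cox7b2, Cox8b, Cox8c and Ndufa4l2. No member fell between these states, since the lowest detected member, Atp5s, stood at 6.32 and 11.5 TPM. The median over all 85 members was 84.3 TPM in replicate 1 and 101 in replicate 2, and members together held 2.69% and 2.66% of the TPM of nuclear protein-coding genes. Across the 78 detected members, log2 TPM in the libraries correlated with a Pearson r of 0.93 and a Spearman rho of 0.91, a description across genes that share the same 2 libraries.

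**Figure D1:**
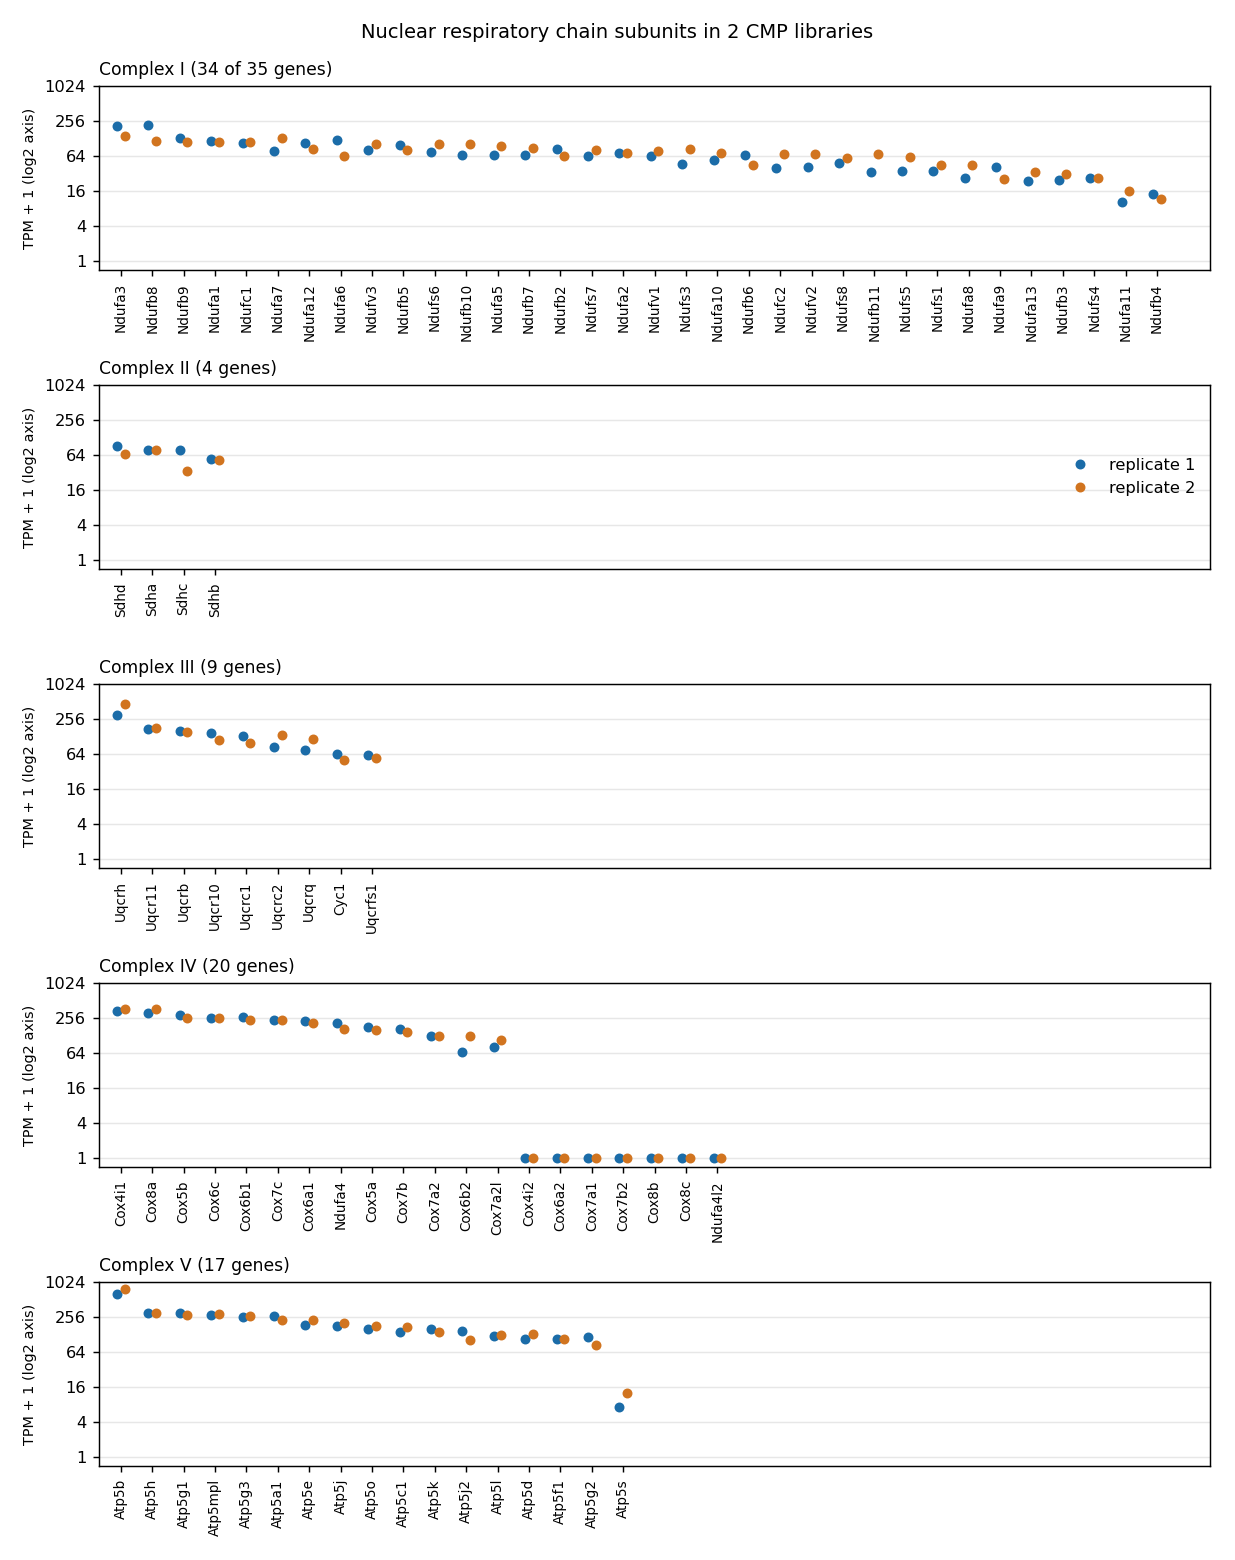
Each panel shows genes of 1 complex (1 complex I gene is not shown), ordered by mean level, with TPM plus 1 on a log2 axis and 1 point for each library. Detected members of complexes I to V lie within a broad band, the 7 silent complex IV forms lie at 0 TPM, and Ndufb4, Ndufa11 and Atp5s lie below their complexes.

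The complexes differed in level. Median TPM was 64.5 in replicate 1 and 72.4 in replicate 2 for complex I, 76.9 and 58.9 for complex II, 129 and 116 for complex III, 144 and 137 for complex IV, and 158 and 175 for complex V. Complexes III, IV and V were thus above complexes I and II in each library, whereas complexes I and II changed places between the libraries and cannot be ranked against each other. Complex V stood above complex IV when the silent forms were counted. Among detected members alone the order turned, with 224 and 210 TPM for complex IV. Restricting every gene to its protein-coding transcripts gave 39.3 and 57.1 TPM for complex I, 65.7 and 44.5 for complex II, 114 and 92.05 for complex III, 97.8 and 94.1 for complex IV, and 141 and 142 for complex V. Complex III then lay above complex IV in replicate 1 and below it in replicate 2.

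Complex I, the NADH dehydrogenase and the largest of the complexes, had counts at gene level in both libraries for all 35 of its members. On protein-coding transcripts alone, Ndufs7 had 0 TPM in replicate 1, and Ndufa5 and Ndufc1 had 0 TPM in replicate 2. Its 7 nuclear core subunits hold the flavin and the iron-sulfur clusters that carry electrons to ubiquinone. Their median was 46.9 TPM in replicate 1 and 78.4 in replicate 2. Ndufv1, which binds NADH, stood at 63.6 and 78.4 TPM. Its partner Ndufv2 stood at 40.4 and 67.3 TPM. Ndufs1, the largest iron-sulfur subunit, stood at 34.9 and 43.4 TPM.

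Ndufs3 stood at 46.0 and 84.4 TPM. Ndufs7, which carries the last cluster of the chain, stood at 62.8 and 80.1 TPM, and Ndufs8 at 46.9 and 57.1 TPM. Each of these core genes was higher in replicate 2 than in replicate 1.

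Surrounding this core are 10 accessory members of the distal membrane arm and 18 others. The highest by mean level was Ndufa3, a small membrane subunit, at 211 and 140 TPM. Ndufb8, in the distal membrane arm, stood at 215 and 116 TPM, and Ndufb9 at 127 and 111 TPM. At the other end, Ndufs4 stood at 25.5 and 25.7 TPM and Ndufa11, a membrane subunit, at 9.5 and 15.0 TPM. The range over all of complex I was 22.7-fold in replicate 1 and 13.003-fold in replicate 2.

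Ndufb4, of the distal membrane arm, was the lowest complex I gene by mean level, at 13.2 and 10.7 TPM from 225 and 145 counts. A pseudogene, Ndufb4c on chromosome 15, held more counts than the gene itself: 496 in replicate 1 and 465 in replicate 2, or 98.4 and 98.9 TPM. The coding sequence of Ndufb4 and the pseudogene were identical over 387 of 387 bases. The first 120 coding bases of Ndufb4 (chr16:37654240-37654359, minus strand, GRCm38) and the same stretch of Ndufb4c (chr15:73809777-73809896, minus strand) are shown to make this plain, with no difference to mark.
Ndufb4: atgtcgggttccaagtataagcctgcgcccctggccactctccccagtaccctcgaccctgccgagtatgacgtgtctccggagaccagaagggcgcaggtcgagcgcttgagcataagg
Ndufb4c: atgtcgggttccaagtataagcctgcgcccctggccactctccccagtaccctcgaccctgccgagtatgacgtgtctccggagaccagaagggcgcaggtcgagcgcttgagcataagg
A read from such a stretch can be placed at either locus, so the deposited division between them is an estimate, and the level of Ndufb4 is uncertain. Together the gene and the pseudogene held 721 and 610 counts. At the length of Ndufb4 these counts would be 42.5 and 45.1 TPM, below the complex I medians. As a sum of the deposited TPM, which divides the pseudogene's counts by its own shorter length, they would be 112 and 110 TPM.

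This was not confined to Ndufb4. Pseudogenes matching the coding sequence of a member at 95% identity or more over at least 150 bases were found for 20 members, 34 pseudogenes in all, and 13 of these held 3 or more counts in a library. For 4 members (Ndufb4, Atp5g2, Atp5l and Cox7c) the pseudogenes took more than 10% of the summed counts in a library. Gm10175 matched Atp5g2 at 100% over 441 bases and held 1920 and 1929 counts, against 1382 and 993 in Atp5g2. Gm10221 matched Atp5l, a small subunit at the base of ATP synthase, at 100% over 309 bases. It held 848 and 1312 counts, against 885 and 879 in Atp5l. For Cox7c the share was 10.02% in replicate 1 and 1.72% in replicate 2.

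**Figure D2:**
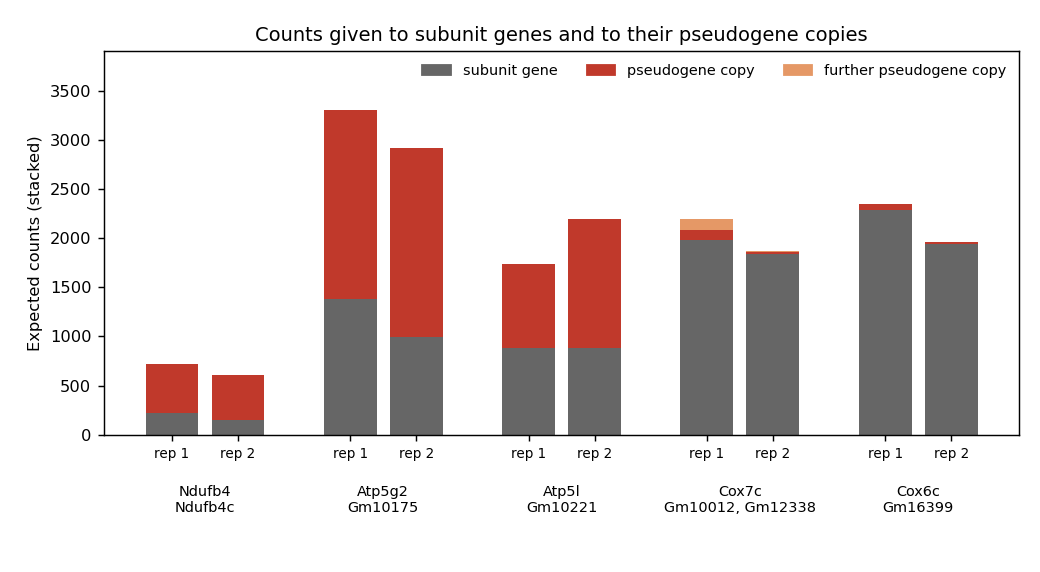
Bars give expected counts in each library for 5 subunit genes (grey) with the counts of their pseudogene copies stacked on top (red and orange). The copies hold more counts than Ndufb4 and Atp5g2 in both libraries and more than Atp5l in replicate 2, and few beside Cox7c and Cox6c.

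Complex II, succinate dehydrogenase, is also an enzyme of the citric acid cycle and is wholly nuclear in origin. Sdha, the flavin subunit, stood at 75.8 and 76.5 TPM. Sdhb, the iron-sulfur subunit, stood at 53.4 and 51.1 TPM. These catalytic subunits were steady between libraries and neither was called different. The membrane anchors Sdhd, at 89.9 and 66.7 TPM, and Sdhc, at 78.0 and 33.0 TPM, were both lower in replicate 2.

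Complex III, which hands electrons from ubiquinol to cytochrome c, had all 9 nuclear members detected. Uqcrfs1, the Rieske iron-sulfur protein, was its lowest member by mean level at 59.6 and 53.5 TPM. Cyc1, cytochrome c1, stood at 63.96 and 50.3 TPM. The core proteins Uqcrc1 and Uqcrc2 were higher, at 129 and 99.7 TPM and at 84.3 and 134 TPM, and their order differed between libraries.

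The small subunits of complex III were mostly above these. Uqcrh, the acidic hinge protein beside cytochrome c1, was highest in gene TPM at 296 and 458 TPM. Uqcr11 followed at 173 and 176 TPM and Uqcrb at 155 and 153 TPM. Uqcrq, which stood at 73.2 and 116 TPM, was the exception in replicate 1. The small subunits had a median of 155 and 153 TPM, against 74.1 and 76.6 TPM for the 4 core members. On protein-coding transcripts alone, Uqcrh stood at 114 and 179 TPM. In replicate 1 this lay below Uqcrb at 149, Uqcr11 at 148, Uqcr10 at 127 and the core protein Uqcrc1 at 119 TPM. In replicate 2 Uqcrh was still the highest of complex III.

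Complex IV, cytochrome c oxidase, was the complex in which alternative forms separated. Its 11 common forms all lay between 122 and 369 TPM, and their median was 237 TPM in replicate 1 and 232 in replicate 2. In gene TPM they varied little, with a 2.66-fold and 3.02-fold range. The range was wider on protein-coding transcripts alone, where Cox7b stood at 44.2 and 39.4 TPM and Cox5b at 115 and 82.1 TPM. Cox8a, wholly coding, kept its level. Cox4i1, the largest nuclear subunit, stood at 333 and 361 TPM. Cox8a stood at 309 and 369 TPM and Cox5b, which binds zinc, at 287 and 250.1 TPM.

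Of the 12 pairs of related genes set against each other, 9 lie in complex IV, and in all 9 the common form was higher in both libraries. In 7 of them the other gene had 0 counts, so the ratio is a lower bound set at 3 counts per library. Cox4i1 was at least 1333-fold higher than Cox4i2, the form known from lung and from cells short of oxygen. Cox6a1 was at least 711-fold higher than Cox6a2 and Cox7a2, at 125 and 122 TPM, at least 170.1-fold higher than Cox7a1, both of them heart and skeletal muscle forms. Cox8a was at least 460.3-fold higher than Cox8b, another muscle form, and at least 699-fold higher than Cox8c, a testis form. Cox7b, at 162 and 149 TPM, was at least 386-fold higher than Cox7b2, also a testis form. The coding transcript of Cox7b held 44.2 and 39.4 TPM of this, so a bound on coding transcripts would be lower. Ndufa4, at 207 and 163 TPM, was at least 891-fold higher than Ndufa4l2, a gene known for induction by low oxygen.

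Cox6b2, usually described as the testis form of the subunit that joins complex IV dimers, was the exception. It held 501 counts in replicate 1 and 860 in replicate 2, or 65.6 and 125 TPM. Cox6b1, the common form, held 265 and 235 TPM, so the ratio of Cox6b1 to Cox6b2 was 4.04 in replicate 1 and 1.88 in replicate 2. In replicate 1 the TPM of Cox6b2 lay near the complex I and II medians, and in replicate 2 above both. The counts of Cox6b2 were spread over several transcript models. Protein-coding transcripts together took 60.5% of its TPM in replicate 1 and 66.6% in replicate 2, or 39.7 and 83.5 TPM. Cox6b1 was wholly coding in both libraries. Among the coding transcripts of Cox6b2, Cox6b2-203 took 37.4% of gene TPM in replicate 1 and 17.0% in replicate 2. A model that undergoes nonsense-mediated decay, Cox6b2-207, took 25.6% and 14.0%, and a retained-intron model, Cox6b2-205, took 13.9% and 19.4%.

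Markers of the tissues that make these forms were read in the same libraries. All 8 testis germ cell genes examined, among them Prm1, Prm2, Tnp1 and Ldhc, had 0 counts in both libraries. Of 8 heart and skeletal muscle genes, Tnni3, cardiac troponin I, had 12 and 115 counts, or 1.03 and 26.5 TPM, and the other 7 (Ckm, Acta1, Myh6, Tnnt2, Mb, Actc1 and Myl2) had 0. Among 8 pericyte and stroma genes only Pdgfrb was detected, at 6.46 and 6.81 TPM, and Rgs5, Cspg4, Kcnj8, Abcc9, Acta2, Des and Notch3 had 0 counts. Cox6b2 and Tnni3 were both higher in replicate 2, and whether these are related was not tested.

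The bases upstream of the first annotated transcript starts of Cox6b1 (chr7:30626152-30626364, minus strand) and Cox6b2 (chr7:4753095-4753225, minus strand) are shown to set the detected pair side by side with Cox7b2 (chr5:71548206-71548455, minus strand), a silent testis form. All are from RefSeq on GRCm38.p6, and no letters are marked.
Cox6b1: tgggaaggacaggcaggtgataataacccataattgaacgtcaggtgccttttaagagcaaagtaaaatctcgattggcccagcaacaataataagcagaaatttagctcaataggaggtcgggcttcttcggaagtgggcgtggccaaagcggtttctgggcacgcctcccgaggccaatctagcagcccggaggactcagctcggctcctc
Cox6b2: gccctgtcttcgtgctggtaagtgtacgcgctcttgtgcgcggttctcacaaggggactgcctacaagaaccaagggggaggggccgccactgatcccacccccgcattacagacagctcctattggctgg
Cox7b2: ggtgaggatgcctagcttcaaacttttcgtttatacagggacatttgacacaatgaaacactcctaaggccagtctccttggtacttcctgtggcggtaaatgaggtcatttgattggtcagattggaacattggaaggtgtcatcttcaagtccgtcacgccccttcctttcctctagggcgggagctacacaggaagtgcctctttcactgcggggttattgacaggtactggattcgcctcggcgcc
The stretches held 4.69, 5.34 and 3.60 CpG dinucleotides per 100 bases, so the detected and the silent testis form both had CpG upstream.

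Cox7a2l, a relative of Cox7a2 known for joining complexes III and IV into supercomplexes, was the other relative detected, at 80.5 and 105 TPM. Cox7a2 exceeded it 1.56-fold in replicate 1 and 1.17-fold in replicate 2. Without division by length the direction turned, with a mean log2 ratio of -0.19 in counts per 1000000, because Cox7a2l held 1542 and 1965 counts on a longer transcript. These genes are therefore not ranked against each other.

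**Figure D3:**
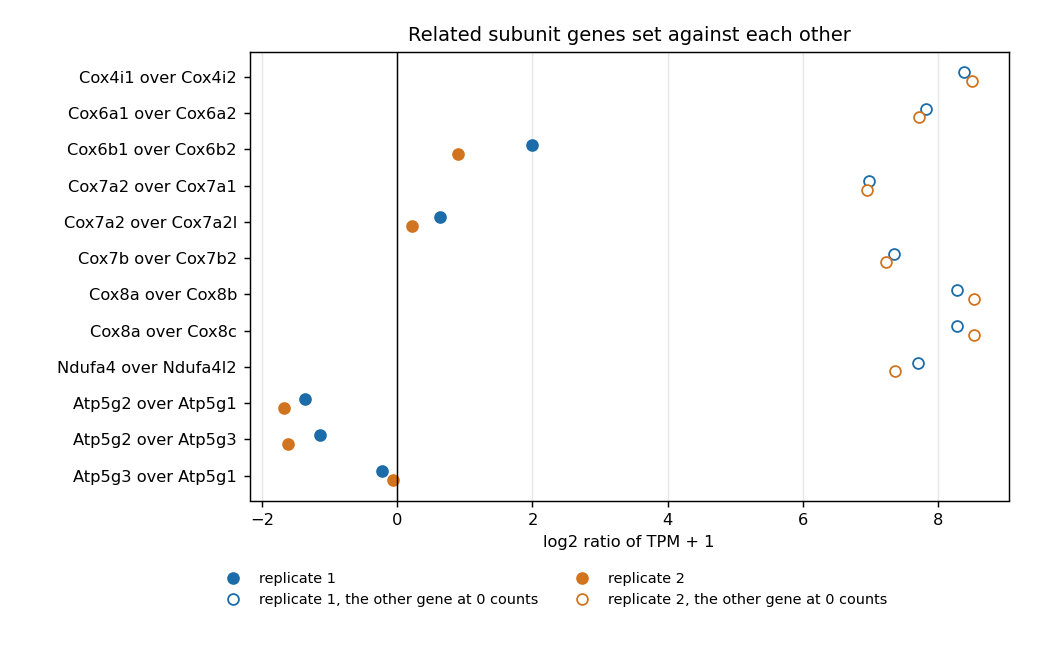
Points give the log2 ratio of TPM plus 1 between the genes of each pair in each library, and open points mark pairs in which the other gene had 0 counts. Open points lie between 6.94 and 8.53, whereas Cox6b1 over Cox6b2, Cox7a2 over Cox7a2l and the Atp5g pairs lie between -1.67 and 2.00.

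Complex V makes ATP in its F1 head, which is joined to the membrane ring by a central stalk and held by a peripheral stalk. Atp5b, the catalytic beta subunit, had the highest gene level of any member, at 645 and 757 TPM. Atp5a1, the alpha subunit, stood at 268 and 228 TPM although it held similar counts, 10114 against 10134 in replicate 1. Atp5c1, the gamma subunit, stood at 141 and 172 TPM, Atp5d at 105 and 129 TPM and Atp5e at 188 and 227 TPM. Alpha and beta subunits are present in equal number in the assembled head, and their gene TPM differed more than 2-fold in both libraries.

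The gap between Atp5b and Atp5a1 rested in large part on a short transcript model. Atp5b-206, a processed transcript of 478 bases with no annotated coding sequence, took 54.3% of the TPM of Atp5b in replicate 1 and 64.2% in replicate 2. The protein-coding model Atp5b-201, of 1916 bases, took 28.0% and 19.0%, which is 181 and 144 TPM. The leading coding model of Atp5a1, Atp5a1-201, stood at 190 and 138 TPM. With all counts at the length of the leading coding transcript, Atp5b stood at 279 and 268 TPM. Atp5a1 then stood at 212 and 165 TPM, so a smaller gap remained in both libraries. On protein-coding transcripts alone, Atp5b went from rank 1 to rank 16 among members and Cox8a ranked first.

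Other members shared this feature. The leading model was not annotated as protein-coding in either library for 10 of 55 members with at least 2 transcripts and 50 counts in each library, against 11.2% of all such genes. Among them were Atp5b, Atp5j, Cox5b, Cox7b, Ndufa10, Ndufc1, Ndufs1, Ndufv1 and Uqcrh. For Uqcrh the retained-intron model Uqcrh-205, of 423 bases, took 59.7% and 59.6% of TPM, and the coding model Uqcrh-202 took 38.4% and 39.0%. For Cox7b, the retained-intron model Cox7b-203 took 72.7% and 73.5%. A protein-coding model led in both libraries for 36 of the 55, against 70.6% of all such genes. The leading model was the same in both libraries for 44 of the 55, against 59.5% of all such genes.

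For Ndufb8 and Sdhc, TPM differed more between the libraries than the counts did. For Ndufb8 the retained-intron model Ndufb8-202 led with 54.6% in replicate 1 and the coding model Ndufb8-201 with 73.2% in replicate 2. The effective length used to compute TPM rose from 299 to 451 bases, so 1320 and 1072 counts became 215 and 116 TPM. For Sdhc the effective length went from 803 to 1428 bases, and 1286 and 966 counts became 78.0 and 33.0 TPM. These were the only 2 of 78 members whose TPM ratio and count ratio differed by more than 0.5 on the log2 scale, against 14.4% of nuclear protein-coding genes with 50 or more counts.

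The membrane ring of complex V is built from the c subunit, and Atp5g1, Atp5g2 and Atp5g3 encode the same mature protein behind different import sequences. Atp5g1 stood at 296 and 273 TPM and Atp5g3 at 255 and 263 TPM. Atp5g2 was lowest at 115 and 85.1 TPM, and the mean log2 ratio of TPM plus 1 was -1.52 ± 0.22 (SD, n = 2) against Atp5g1 and -1.38 ± 0.34 against Atp5g3. Atp5g3 over Atp5g1 gave -0.14 ± 0.12 and 0.08 in counts per 1000000, so these neighbours are not ranked. With the counts of Gm10175 given to Atp5g2 at its own length, Atp5g2 would stand at 274 and 250.4 TPM, with mean ratios of -0.12 against Atp5g1 and 0.02 against Atp5g3. As a sum of the deposited TPM, over the pseudogene's shorter length, it would stand at 325 and 305 TPM, with mean ratios of 0.15 and 0.28. Against Atp5g1 the direction turned only in the second of these sums, so that turn rests on the length used for the pseudogene.

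The last 120 coding bases of the 3 genes, which encode the end of the shared mature protein, are shown with bases that differ from Atp5g1 in capitals. They lie at chr11:96073107-96073530 for Atp5g1, chr15:102663017-102665061 for Atp5g2 and chr2:73908596-73909191 for Atp5g3, all on the minus strand of GRCm38 and each interrupted by an intron.
Atp5g1: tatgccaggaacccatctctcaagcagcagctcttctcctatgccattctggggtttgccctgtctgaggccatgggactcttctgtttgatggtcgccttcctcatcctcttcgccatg
Atp5g2: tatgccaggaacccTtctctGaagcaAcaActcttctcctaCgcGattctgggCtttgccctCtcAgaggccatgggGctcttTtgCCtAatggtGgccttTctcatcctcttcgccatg
Atp5g3: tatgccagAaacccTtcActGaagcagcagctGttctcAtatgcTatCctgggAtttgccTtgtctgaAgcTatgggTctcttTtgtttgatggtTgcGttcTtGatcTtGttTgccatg
Atp5g2 differed from Atp5g1 at 16 of these bases and Atp5g3 at 21, so reads from the 3 genes can be told apart here even though the protein is shared. Over the whole coding sequence, Atp5g2 matched Atp5g1 at 79.2% of 394 aligned bases and Atp5g3 matched it at 73.1% of 398.

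Of the 4 members counted with the peripheral stalk, Atp5h was highest at 300.4 and 304 TPM and Atp5f1 lowest at 108 and 105 TPM. Among the small membrane subunits Atp5mpl stood at 273 and 290.3 TPM. Atp5s, coupling factor B, was far below all other complex V genes at 6.32 and 11.5 TPM, from 174 and 312 counts. Its protein is not counted among the structural subunits of the enzyme. Leaving out Atp5s, complex V genes ranged from 85.1 TPM, for Atp5g2, to the level of Atp5b.

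Between the libraries, 64 of 78 members were called different by the exact binomial test on scaled counts (edgeR, adjusted p under 0.05), against 78.2% of the 13616 genes tested. The members' share is close to that background. Of the 64, 32 were higher in replicate 2, against 40.6% of all genes, and 32 were higher in replicate 1, against 37.6%. This test takes counting noise as the only error. At a common dispersion of 0.575, edgeR's exact test called 0 of 78 members and 0 genes in all. At an unadjusted p under 0.05 it called 0 members and 11.3% of all genes. This dispersion was estimated from the same 2 libraries taken as 1 group, so their whole difference counts as noise. Few calls are thus built in, and no conclusion is drawn from them.

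In size, members differed little between the libraries. Only Ndufa6 passed 2-fold, 1 of 78 members, against 29.8% of all genes tested, 21.6% of those that reached 50 counts and 8.84% of nuclear protein-coding genes within the members' range of mean counts. The median absolute log2 ratio was 0.29 for members and 0.33 for genes of that range. Ndufa6, a complex I accessory subunit that holds the mitochondrial acyl carrier protein, fell from 1030 counts to 510, a log2 ratio of -1.04 (exact binomial test in edgeR, adjusted p = 1.16e-41). Which members passed 2-fold depended on the scale: with total counts they were Ndufb11, Uqcrq and Atp5s, at 1.17, 1.11 and 1.01, and in TPM they were Ndufb11 and Sdhc, at 1.03 and -1.24. The share of all genes past 2-fold is not given for either of these scales.

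The next members lower in replicate 2 were Ndufa9 at -0.75, Ndufa12 at -0.74, Atp5j2 at -0.67 and Ndufb4 at -0.65. The members that were highest in replicate 2 relative to replicate 1 were Ndufb11, with 520 and 1036 counts and a log2 ratio of 0.96, and Uqcrq, with 430 and 822 counts and 0.90. Atp5s at 0.81, Cox6b2 at 0.75 and Ndufv2 at 0.75 followed.

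Some groups leaned one way. Of the 7 complex I core members, 6 were called, against 78.2% of all genes, and all 6 were higher in replicate 2, against 40.6%, with a group median log2 ratio of 0.48. The 10 members of the distal membrane arm had 3 called higher in replicate 2, 6 higher in replicate 1 and a median of -0.28. Of the 11 common forms of complex IV, 10 were called and 9 of them were higher in replicate 1, against 37.6% of all genes, with a median of -0.21. Scaling by total counts, which raised the median of all genes from 0.03 to 0.23, left 17 members higher in replicate 1 and put 52 of 78 members above 0 in place of 34. The share of all genes called under total-count scaling is not given, so counts under it are not set against a background. With that scaling the complex I core members were all called higher in replicate 2, with a median of 0.68. The distal membrane arm had 4 called higher in each library and a median of -0.07. The common forms of complex IV then had a median of -0.01, with 2 called higher in each library, so the lean of the latter 2 groups depends on the scaling. Total-count scaling shifts all genes toward replicate 2. It could thus only enlarge the lean of the complex I core and reduce the other leans, so it is no check of the core.

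**Figure D4:**
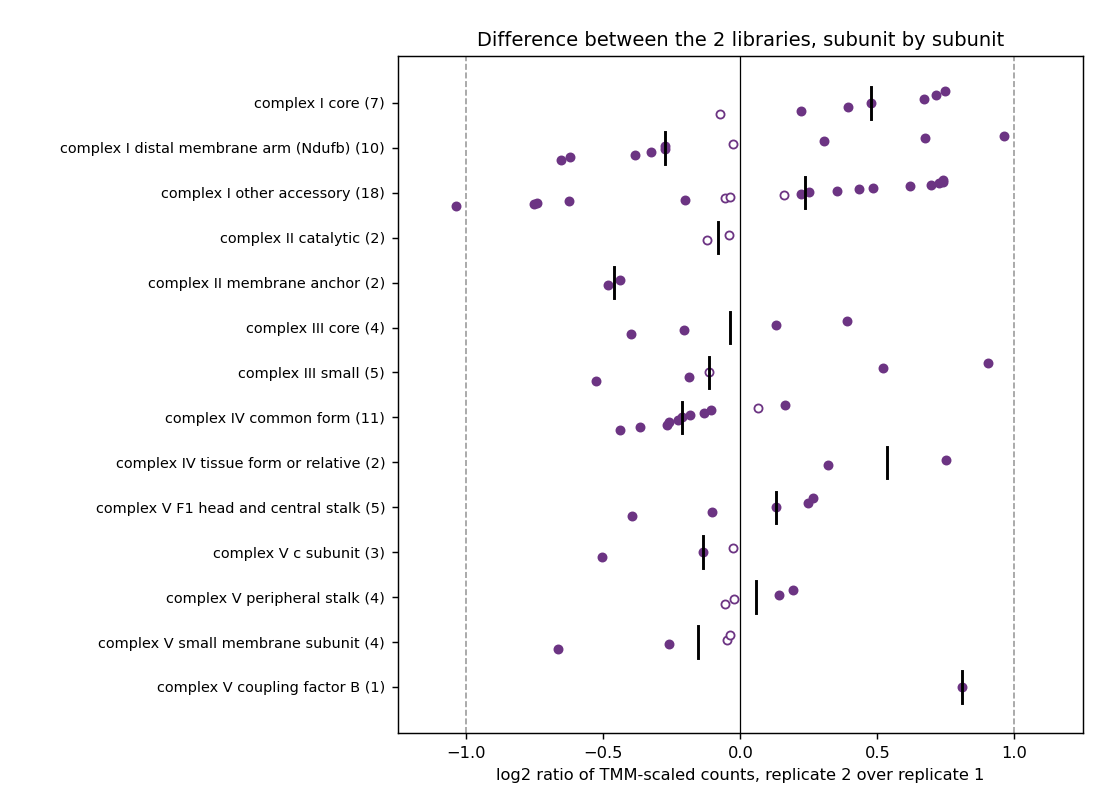
Points give the log2 ratio of TMM-scaled counts (replicate 2 over replicate 1) for the 78 detected members by complex and role, filled where the exact binomial test called a difference, with the median of each group as a bar. Dashed lines mark 2-fold, and only Ndufa6, at -1.04, lies outside them.

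The mitochondrial genome encodes further subunits of complexes I, III, IV and V, and their medians stood well above those of the nuclear members. Single genes overlapped. In complex I, mt-Nd6, chosen after its values were seen, stood at 147 and 157 TPM. It lay below Ndufa3 at 211 TPM and Ndufb8 at 215 TPM in replicate 1, and above both in replicate 2. The median of the mitochondrially encoded genes was 14.1 and 12.97 times that of the nuclear members in complex I, 14.5 and 17.2 times in complex III, 12.3 and 5.83 times in complex IV, and 22.0 and 25.9 times in complex V. Over detected members of complex IV alone the ratios were 7.91 and 3.81. The lower complex IV ratio in replicate 2 came with mt-Co3 and mt-Co2. Between the libraries mt-Co3 went from 1771 to 799 TPM and mt-Co2 from 1261 to 679 TPM, with log2 count ratios of -1.22 and -0.97, while mt-Co1 stood at 3105 and 4119 TPM. In complex I, mt-Nd4l, which overlaps mt-Nd4, had 0 counts in replicate 1 and 1124 in replicate 2.

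Genes that build the complexes were far below the subunits themselves. Median TPM was 7.57 and 12.4 for 15 complex I assembly factors, 7.87 and 7.31 for 4 of complex II, 9.62 and 10.7 for 6 of complex III, 8.94 and 10.9 for 21 of complex IV, and 17.5 and 15.9 for 4 genes of complex V. The highest were Cox17, a copper chaperone, at 47.5 and 128 TPM, Cox20 at 65.7 and 71.7 TPM, and Uqcc2 at 33.6 and 83.6 TPM. Atpif1, the inhibitor of ATP synthase, stood apart from the assembly factors in its list at 511 and 576 TPM. In gene TPM this lay below Atp5b and above every other complex V member. The coding transcripts of Atp5b alone stood at 181 and 144 TPM, but Atpif1 was read as gene TPM only, so these values are not compared. For complex I assembly, 12 of 15 genes were called between libraries, against 78.2% of all genes tested, and 9 of them were higher in replicate 2, against 40.6%.

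Among the mobile carriers and ubiquinone synthesis genes, Coq9 stood at 30.5 and 46.6 TPM, Cycs, somatic cytochrome c, at 36.9 and 26.5 TPM and Coq2 at 24.9 and 32.5 TPM. Cyct, the testis form of cytochrome c, had 0 counts in both libraries, as did the testis forms of complex IV other than Cox6b2. Of 16 regulators known for respiratory chain genes, Pprc1 was highest at 54.6 and 43.9 TPM, followed by Sp1 at 25.9 and 44.8 and Nrf1 at 28.2 and 31.6 TPM. Gabpa, Gabpb1, Gabpb2, Yy1 and Tfam were also detected. Ppargc1a, the coactivator known for raising mitochondrial genes in muscle and brown fat, had 0 counts in both libraries, while its relative Ppargc1b stood at 4.02 and 4.20 TPM.

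Many members shared the region of their start with another gene. For 31 of 85 members a protein-coding gene on the other strand started within 1000 bases, head to head, against 10.9% of nuclear protein-coding genes. Among detected genes the numbers were 31 of 78 and 18.7%. The neighbours included genes of related function. Ndufs6 lay beside Mrpl36 and Ndufb5 beside Mrpl47, both mitochondrial ribosomal proteins, Sdhd beside Timm8b, a mitochondrial import gene, and Atp5j beside Gabpa, which encodes the DNA-binding part of nuclear respiratory factor 2. Where start regions overlap, reads there cannot be assigned without strand, and the sources used here do not state whether the counting used strand.

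The neighbours did not share the members' levels. In 30 of 32 such pairs the subunit was higher in both libraries. Detected members had medians of 104.7 and 104.2 TPM, against 13.15 and 13.46 for detected nuclear protein-coding genes. A higher subunit would thus be common beside most genes, and no background share was computed. The neighbour reached 1 TPM in both libraries in 23 pairs, against 44.9% of nuclear protein-coding genes. In 6 pairs the neighbour was at 0 in both, against 9360 of 21461 such genes. Atp5j stood at 177 and 198 TPM beside Gabpa at 23.5 and 15.1 TPM. The 2 neighbours above their subunit belong to the translation machinery: Rps28 at 1364 and 1462 TPM beside Ndufa7 at 77.2 and 128 TPM, and Eef1b2 at 591 and 675 TPM beside Ndufs1. Sdhd and Timm8b were the closest pair in replicate 1, at 89.9 and 83.2 TPM, and separated to 66.7 and 37.7 TPM in replicate 2.

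**Figure D5:**
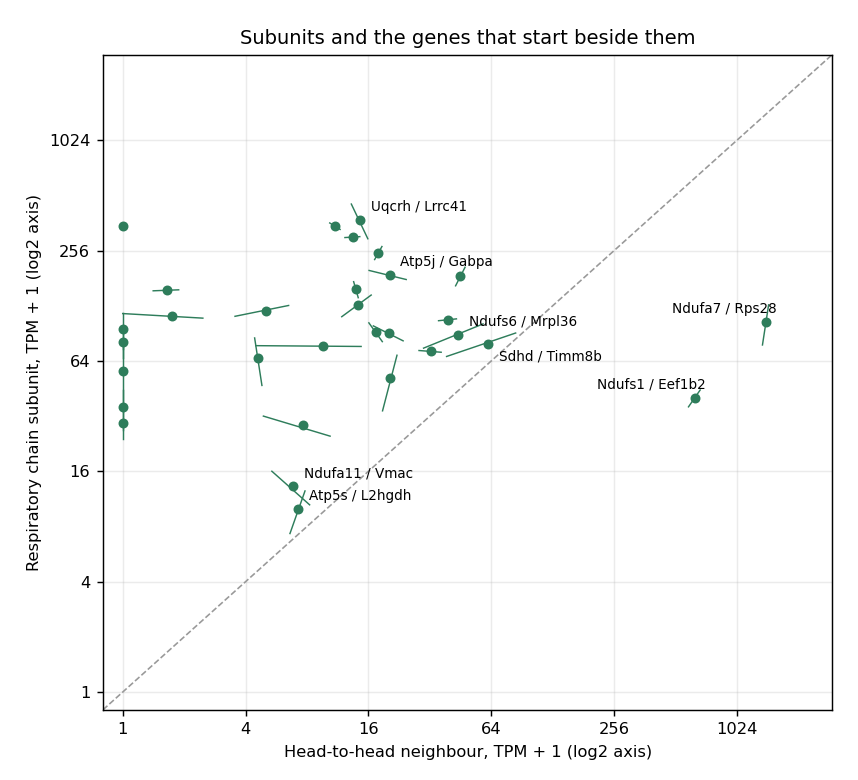
All but 1 of the pairs are shown. Each point is 1 subunit (vertical axis) and the gene that starts head to head within 1000 bases (horizontal axis), as mean TPM plus 1 on log2 axes, with a line joining the values in the libraries. Points above the dashed line of equal level are pairs with the subunit higher, and Rps28 and Eef1b2 lie to its right.

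Binding motifs of the known regulators were searched on both strands in the 300 bases around the start (250 before and 50 after) for the 66 members with a RefSeq promoter. The nuclear respiratory factor 1 core GCATGCGC was in 10 of 66, or 15.2%, against 3.79% of 16317 nuclear protein-coding promoters and 6.28% of those of detected genes. The ETS core CCGGAAG, bound by GABPA, was in 15, or 22.7%, against 12.4% of all and 21.7% of detected genes, so its share was close to that of detected genes. The YY1 core AAGATGGC was in 8, or 12.1%, against 3.30% and 5.67%. The ETS and YY1 cores can overlap in a run that holds both, and a match describes the sequence only.

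Upstream bases of Cox6a1 (chr5:115348982-115349129, minus strand, GRCm38.p6) and Ndufa6 (chr15:82354323-82354541, minus strand) are shown as members with the nuclear respiratory factor 1 core, whose matches are in capitals. Cox6a1 carries overlapping matches on both strands.
Cox6a1: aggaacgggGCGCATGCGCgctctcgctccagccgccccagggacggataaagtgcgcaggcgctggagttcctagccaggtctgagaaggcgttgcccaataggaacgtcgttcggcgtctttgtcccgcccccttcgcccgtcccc
Ndufa6: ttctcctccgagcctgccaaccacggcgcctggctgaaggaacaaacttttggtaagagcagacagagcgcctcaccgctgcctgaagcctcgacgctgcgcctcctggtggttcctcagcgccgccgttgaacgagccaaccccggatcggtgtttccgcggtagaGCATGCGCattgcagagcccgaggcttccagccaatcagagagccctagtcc
Cox6a1 stood at 224 and 210 TPM and Ndufa6 at 121 and 62.5 TPM, and they moved by log2 ratios of -0.18 and -1.04, so members that share this motif differed in level and in the size of their difference between the libraries.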

How the data were processed

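Per the file headers, the authors used mouse build mm10 and the GENCODE M4 transcripts. Which aligner and quantifier were used is not given in the sources used here. In the deposited expected counts, reads shared between genes are divided among them. The deposited TPM values cover all table entries, spike-ins included, and the deposited percent values give each transcript's share of its gene's TPM. Symbols, biotypes and coordinates came from GENCODE M21 (42462 of 43346 genes matched). The members and lists were chosen with earlier results of these data known. The values of 1 complex I member are not reported here.

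Values were given for the 3 highest and 3 lowest members of each complex, members below 1 TPM, all 12 pairs, core subunits and the 5 largest ratios between libraries in each direction; of the other lists, for the 3 highest genes and those below 1 TPM in both libraries. Transcripts, pseudogenes and neighbours were chosen after their values were seen. Pair ratios used a pseudocount of 1 TPM. The libraries were compared by a two-sided exact binomial test (edgeR 4.0.16, R 4.3.3) on expected counts rounded to whole numbers with TMM scaling, 10 or more counts in a library and Benjamini-Hochberg adjustment at 0.05, ribosomal RNA, tRNA and spike-ins being left out. Fold counts used a prior count of 2. Tested on simulated data with counting noise alone, it recovered 84% of 50 genes changed 1.5-fold and 98% changed 2-fold, and called 6 of 13142 unchanged genes among 13342. Pseudogenes were matched with blastn 2.17.0. As alternatives, the TPM threshold, the kind of TPM, the scaling (DESeq2 1.42.0 size factors or total counts), the count minimum, the test, transcript lengths and models, and the pseudogene copies were varied and each library was left out.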

Additional observations from a re-analysis of the deposited data

Results flagged for a closer look

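Pseudogenes that copy a member lie outside the subunit genes, yet 13 of them held 3 or more expected counts in a library, the limit that a count of 0 allows. The 6 with 50 or more counts in a library are given here. Gm10175, a copy of Atp5g2, held 1919.79 counts in replicate 1 and 1929.37 in replicate 2. Gm10221, a copy of Atp5l, held 847.96 and 1311.89. Ndufb4c, a copy of Ndufb4, held 496.46 and 464.89. Gm12338 and Gm10012, both copies of Cox7c, held 116.44 and 103.79 in replicate 1 and 11.36 and 20.91 in replicate 2. Gm16399, a copy of Cox6c, held 59 and 16. Whether these reads come from the copies or from the subunit genes was not tested.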

How the results depend on the processing

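At gene level all 78 detected members were detected at 0.5 and 5 TPM, with posterior mean TPM and in each library alone. On protein-coding transcripts alone, Ndufs7 had 0 TPM in replicate 1, and Ndufa5 and Ndufc1 had 0 TPM in replicate 2. Median TPM of complexes I to V became 178, 177, 318, 365 and 432 when rescaled over nuclear protein-coding genes, and 48.2, 55.1, 103, 95.9 and 141 on protein-coding transcripts alone. Per length of the leading protein-coding transcript it became 61.2 for complex I, 96.7 for III, 112 for IV and 149 for V. For complex IV it became 134 with posterior mean TPM, 217 over detected members and 155 without Cox6b2, and for complex V 208 with Gm10175 and Gm10221 added as TPM or as counts at the members' own lengths. Directions turned for Cox7a2 over Cox7a2l, to -0.19, and Atp5g3 over Atp5g1, to 0.081, without division by length. With the TPM of Gm10175 added, Atp5g2 over Atp5g1 and over Atp5g3 turned to 0.15 and 0.28; with its counts at the length of Atp5g2, only the latter turned, to 0.019, and the former was -0.12. In each case the alternative's own construction moves the value.

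Between the libraries, edgeR's exact test at the common dispersion called 0 members, 0 of them higher in replicate 2 and 0 in replicate 1, against 64, 32 and 32. That dispersion came from the same 2 libraries, so few calls are built in. Total-count scaling gave 17 members higher in replicate 1 and 3 past 2-fold, TPM gave 2 past 2-fold, and DESeq2 size factors changed no count. Shares of all genes under these alternatives are not given. No paired analysis was possible because both libraries belong to 1 group. Reads within stretches identical between a member and its copy cannot be placed by sequence, and reads from the rest of the transcripts were not examined. With 2 libraries no order of levels can be tested. Alternatives on pseudogene copies, transcript lengths and models, Cox6b2 and the 2-fold counts in TPM and total counts were chosen after seeing the data.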
